A study of Homo sapiens with 12 samples.

Results

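Pre-mRNA splicing factors were followed in MOLT4, an established human T lymphoblast line from an acute lymphoblastic leukaemia, by RNA sequencing after exposure to vehicle or to 1 of 2 related compounds. The members were the protein-coding genes whose symbol begins with SRSF, HNRNP, SNRP, SF3A, SF3B, PRPF, LSM, U2AF or RBM, together with BCAS2. They numbered 55 of the 5759 genes in the authors' deposited table. RefSeq holds 143 protein-coding genes under the same rule. Of these, 38.5% were listed, against 26.3% of all RefSeq protein-coding genes, and the other 88 are not analysed here. Neither share was limited to genes expressed in these cells, so the gap between them is not a measure of response. By family, 8 of 15 LSM, 7 of 12 PRPF, 6 of 26 HNRNP, 5 of 12 SRSF, 4 of 12 SNRP, 2 of 3 SF3A, 3 of 6 SF3B, 19 of 53 RBM and 0 of 3 U2AF genes were listed. The rule goes by letters: LSMEM1 encodes a membrane protein unrelated to the LSm family, and several RBM-named genes act outside splicing.

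The 12 samples were wild-type cells, 3 in each of 4 groups. The control group was held in vehicle (DMSO) and sampled at 6 h, a pair of groups received 0.1 µM of 955 and were sampled at 1 h or at 6 h, and the last received 1 µM of SNS-032 and was sampled at 6 h. SNS-032 inhibits cyclin-dependent kinases, among them CDK9, which drives elongation by RNA polymerase II, and 955 is a piperlongumine conjugate that carries SNS-032 as its warhead. The doses of the compounds differ, and the only vehicle group was taken at 6 h. Nothing in the labels says whether the 3 samples of a group were separate cultures. The spread between these samples, on which the p-values rest in part, may therefore be technical. All groups are of 1 cell line. Of 15 T lymphoblast markers, 6 were listed (LEF1, DNTT, CD1B, CD3G, CD7 and CD4), with average levels of 6.09 to 9.73 on the table's log2 CPM scale, a library-scaled count (the authors' deposited table). Of the myeloid markers 0 of 4 were listed, and of the erythroid markers 0 of 3. Listing went by a change under treatment, so a marker that is not listed may still be expressed.

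Introns are removed by the spliceosome, which is assembled on each transcript from small nuclear ribonucleoproteins (snRNPs). Sm and LSm proteins form rings on the snRNAs, the SF3 complexes of the U2 snRNP hold the branch point, and the PRPF proteins and the PRPF19 complex, to which BCAS2 belongs, activate the assembled machine. SR proteins mostly promote the use of the exons they bind, while hnRNP proteins coat nascent RNA and often repress splice sites.

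The deposited values are a log2 fold change of each treated group against DMSO with its F statistic and false discovery rate (FDR), and 1 average level per gene over all samples. Values of single samples were not used here. The error printed with a fold change is the standard error implied by it (the log2 fold change over the root of F) in the authors' model. The denominator degrees of freedom recovered from F and p had a median of 23.3 over the members. That is more than 12 samples can give for a single gene. For most members the error is therefore not the spread between the 3 replicates of a group alone. A gene was called when its FDR was under 0.05 and its log2 fold change at least 1 in size. Every listed gene had passed such a bound in at least 1 comparison, so a high share of calls at 6 h was fixed by the listing. Small sizes were cut by it too. Larger values at 6 h than at 1 h were favoured, since all but 1 member had a call at 6 h. The direction was not set by the listing, and sizes and timing are given beside those of all listed genes. The labels do not say what tool made the F statistic. The errors and the contrasts between treated groups take it as a test of 1 coefficient with the gene's own denominator degrees of freedom. The fold changes are relative values scaled to each library, and the exact normalization is not known here. The 13 mRNAs of the mitochondrial genome, which has its own polymerase, stood at a median of 2.07 with 955 at 6 h, 2.35 under SNS-032 and 0.67 with 955 at 1 h in the authors' deposited table. Scaling on them instead lowers every log2 value by these amounts and moves the median of all listed genes after 6 h of 955 from -1.03 to -3.10, so each called rise against DMSO given below is followed by its value on that scale. In bulk RNA, fewer cells of a kind and less RNA per cell cannot be told apart.

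After 6 h most of the 55 listed splicing-factor genes were lower than in DMSO. With 955, 36 of 55 members were lower and 9 higher in the authors' deposited table, where 50.1% of all listed genes were lower and 35.2% higher (85.3% in either direction). With SNS-032, 39 members were lower and 11 higher, against 52.5% and 37.8% of all listed genes (90.2% in either direction). By FDR alone 53 members passed with 955 and 52 under SNS-032, beside 93.5% and 95.7% of all listed genes, a share near the background. The members' median log2 fold change was -1.21 with 955 and -1.25 under SNS-032. Over all listed genes it was -1.03 and -1.07 in the authors' deposited table. All members are protein-coding. Among listed protein-coding genes, 53.0% were lower and 32.5% higher with 955, and 54.7% and 35.6% under SNS-032, with medians of -1.08 and -1.11. The shares over all listed genes given below include other gene types too. On the mitochondrial scale the calls became 46 lower and 0 higher for 955, and 50 lower and 0 higher for SNS-032. The shares over all listed genes were not computed on that scale. It lowers every gene, so these counts say nothing particular about the members. The counts by role group below are to be read beside the shares on the deposited scale. The members ranged from -3.90 (PRPF4) to 3.56 (RBM44) with 955 and from -5.24 (BCAS2) to 3.65 (RBM44) under SNS-032, per the authors' deposited table. Their median implied standard error was 0.175 with 955 and 0.174 under SNS-032. At 1 h, 1 of 55 members was called lower and 0 higher in the authors' deposited table, against 7.71% and 0.729% of all listed genes (8.44% in either direction). The median of the members was 0.00.

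**Figure D1:**
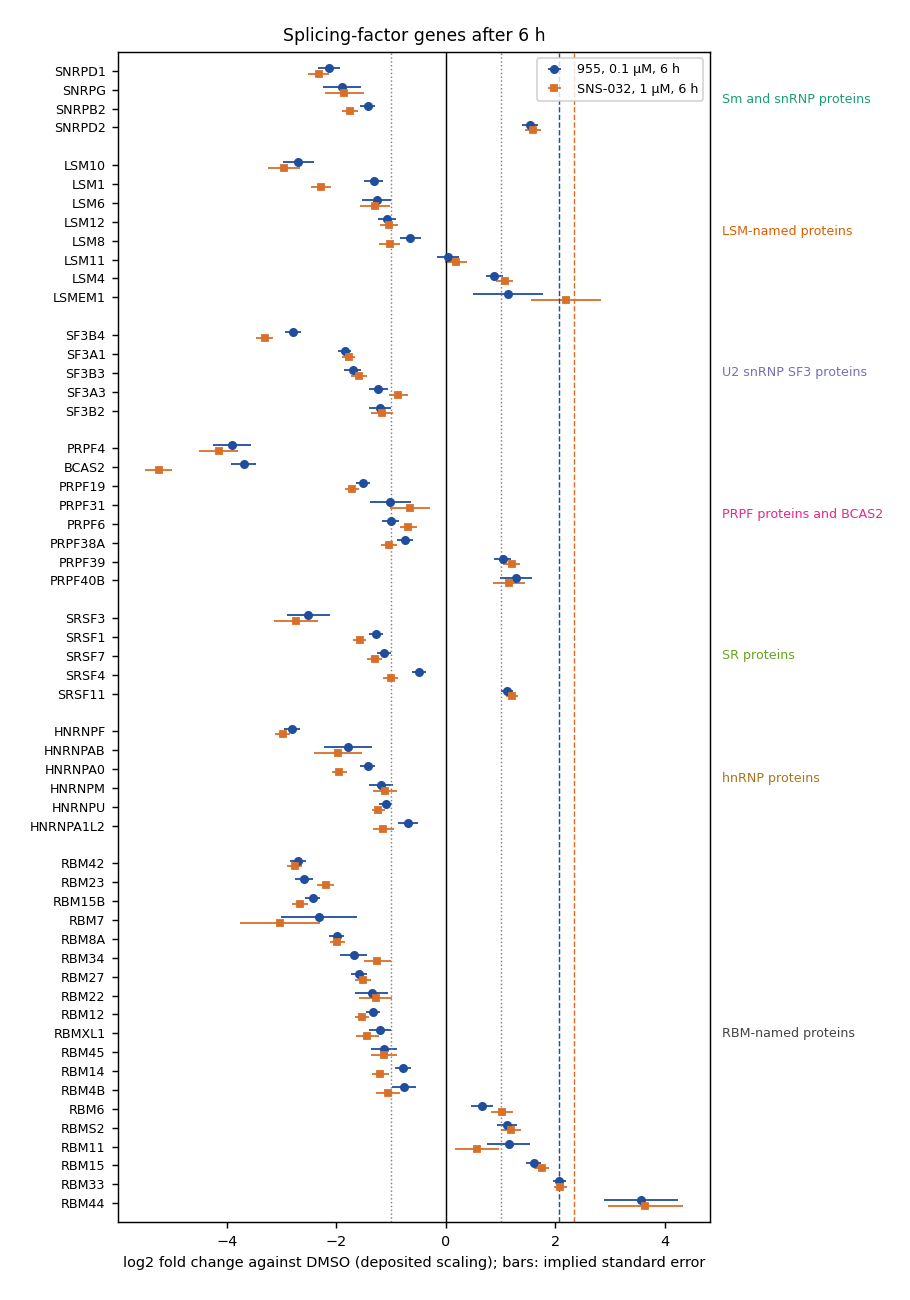
Log2 fold change against DMSO of the 55 splicing-factor genes at 6 h under 955 (circles) or SNS-032 (squares), sorted within role groups, with bars for the implied standard error; dotted lines mark 1 and -1, and dashed lines mark the medians of the mitochondrial mRNAs (2.07 and 2.35). Most genes lie below -1, PRPF4 and BCAS2 lie lowest, and of the genes to the right of 0 only RBM44 and, for 955, RBM33 reach the dashed lines.

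The promoters of 6 picked members are shown for comparison. They are those of 3 core spliceosome genes that fell far with each compound (BCAS2, PRPF4 and SF3B4), of the paralogues RBM15B and RBM15, which moved in opposite directions, and of SNRPD2, the Sm gene that was higher. They are not the ends of the range, since RBM44, the highest with each compound, is not among them. Each is the 250 bases before the gene's start, from RefSeq (GRCh38.p14), written 5′ to 3′ along the gene's strand, with capitals at matches to any of 8 searched motifs. The positions are chr1:114581616-114581865 (minus strand) for BCAS2, chr9:113275408-113275657 (plus strand) for PRPF4, chr1:149927804-149928053 (minus strand) for SF3B4, chr3:51391035-51391284 (plus strand) for RBM15B, chr1:110339127-110339376 (plus strand) for RBM15 and chr19:45692317-45692566 (minus strand) for SNRPD2.
BCAS2: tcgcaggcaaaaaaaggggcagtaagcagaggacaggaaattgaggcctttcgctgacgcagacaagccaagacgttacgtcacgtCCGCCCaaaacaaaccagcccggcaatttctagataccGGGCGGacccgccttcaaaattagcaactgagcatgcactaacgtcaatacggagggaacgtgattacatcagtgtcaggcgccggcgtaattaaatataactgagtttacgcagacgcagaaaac
PRPF4: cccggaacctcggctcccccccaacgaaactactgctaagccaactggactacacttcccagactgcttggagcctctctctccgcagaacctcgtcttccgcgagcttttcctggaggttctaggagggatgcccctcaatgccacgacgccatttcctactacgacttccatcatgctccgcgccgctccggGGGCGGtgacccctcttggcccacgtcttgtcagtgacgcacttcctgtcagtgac
SF3B4: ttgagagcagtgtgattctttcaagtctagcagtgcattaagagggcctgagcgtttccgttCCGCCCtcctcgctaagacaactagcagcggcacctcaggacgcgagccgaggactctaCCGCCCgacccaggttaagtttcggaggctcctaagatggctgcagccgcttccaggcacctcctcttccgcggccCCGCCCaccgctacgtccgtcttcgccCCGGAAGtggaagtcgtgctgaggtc
RBM15B: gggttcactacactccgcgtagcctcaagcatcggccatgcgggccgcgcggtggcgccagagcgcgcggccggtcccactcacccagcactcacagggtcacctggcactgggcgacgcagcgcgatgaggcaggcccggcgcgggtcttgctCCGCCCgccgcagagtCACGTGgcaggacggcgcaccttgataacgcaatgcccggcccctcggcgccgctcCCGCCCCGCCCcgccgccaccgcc
RBM15: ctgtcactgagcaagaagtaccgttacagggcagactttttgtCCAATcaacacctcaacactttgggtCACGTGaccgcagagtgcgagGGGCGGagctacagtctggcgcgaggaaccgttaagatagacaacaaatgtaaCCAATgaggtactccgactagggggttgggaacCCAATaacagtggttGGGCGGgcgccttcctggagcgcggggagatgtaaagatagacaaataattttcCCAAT
SNRPD2: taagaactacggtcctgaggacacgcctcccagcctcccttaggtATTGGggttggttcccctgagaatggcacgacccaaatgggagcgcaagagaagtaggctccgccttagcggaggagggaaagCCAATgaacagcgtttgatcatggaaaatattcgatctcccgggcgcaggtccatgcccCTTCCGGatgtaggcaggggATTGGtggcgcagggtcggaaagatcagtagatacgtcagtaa
The motifs were searched on both strands. The TATA box was searched as the letters TATAAA, and the CCAAT box as its name spells it. For the E-box the letters searched were CACGTG, the core bound by several helix-loop-helix factors. Sites of the ETS type were searched as CCGGAAG, and the GC box bound by Sp factors as GGGCGG. The 3 longer motifs are given by name: the NRF1 type, the YY1 type and a palindrome. The longer ones had no match in these 6 windows. RBM15 has CCAAT at 207, 107, 74 and 5 bases before its start, an E-box at 181 and GC boxes at 160 and 59, whereas RBM15B has an E-box at 80 and GC boxes at 96, 24 and 19, the last pair overlapping, and no CCAAT. The window of RBM15B is 74.8% G and C, against 51.6% in RBM15. SF3B4 has an ETS-type match 26 bases before the start and GC boxes at 188, 129 and 53, and SNRPD2 has one at 63, beside CCAAT at 205, 122 and 43. BCAS2 has GC boxes at 164 and 126, and PRPF4 has one at 56.

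Promoters of 300 bases (50 after the start included) were found for 50 of the 55 members. The ETS-type letters occurred in 13 of the 32 promoters of members lower with 955 at 6 h (40.6%) and in 1 of the 8 of members higher (12.5%). Over all listed protein-coding genes the same shares were 26.2% among the lower and 11.5% among the higher, and 14.2% of all RefSeq protein-coding promoters hold the letters. CCAAT was found in 48.0% of the members' promoters and in 36.4% of all, GC boxes in 68.0% and 58.5%, the TATA box in 8.0% and 9.63%, and the E-box in 6.0% and 8.88%. NRF1-type letters were in 7 of the 50 members' promoters and in 8.58% of all. YY1-type letters were in 2 of 50 and in 1.37% of all, and the palindrome was in 0 of 50 members' promoters and in 0.669% of all. Median G and C content was 62.2% in the members and 62.7% in all. Among listed protein-coding genes the shares were 37.9% for CCAAT, 69.0% for GC boxes, 6.31% for the TATA box and 10.2% for the E-box. They were 12.1% for the NRF1 type, 2.43% for the YY1 type and 0.832% for the palindrome, with a median G and C content of 65.0%. Beside the listed genes, the members' share with GC boxes was not higher. These shares describe letters in a fixed window and were not tested.

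Among the Sm and other snRNP proteins, 3 of 4 listed members fell with each compound and SNRPD2 went the other way. SNRPD1 (gene ID 6632), which encodes a subunit of the Sm ring, stood at -2.13 ± 0.19 with 955 (FDR 4.16e-09) and -2.32 ± 0.20 under SNS-032 (1.03e-09), per the authors' deposited table. With 955 that is 22.8% of the DMSO level. SNRPG (6637), another ring subunit, was at -1.89 ± 0.35 and -1.85 ± 0.35, and SNRPB2 (6629), which binds U2 snRNA, at -1.43 ± 0.14 and -1.74 ± 0.15 in the authors' deposited table. SNRPD2 (6633), the direct partner of SNRPD1 in the ring, was at 1.54 ± 0.15 with 955 (FDR 8.79e-09) and 1.59 ± 0.15 under SNS-032 (4.51e-09), per the authors' deposited table, or 2.92 and 3.02 times DMSO. On the mitochondrial scale SNRPD2 was at -0.53 and -0.75, and its place above the other listed ring subunits cannot change with the scaling. The fold changes of this pair of partners therefore lay more than 3 log2 units apart with either compound.

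Of the listed LSM-named genes, 4 of 8 were lower and 0 higher for 955, and 5 lower and 2 higher for SNS-032. LSM10 (84967) and LSM11 (134353) encode the subunits particular to the U7 snRNP, which trims histone mRNAs, and they did not move together. LSM10 was at -0.19 ± 0.27 at 1 h, -2.69 ± 0.29 at 6 h under 955 (FDR 5.68e-08) and -2.95 ± 0.29 under SNS-032 (1.54e-08), per the authors' deposited table. LSM11 was the only member called at 1 h, at -1.05 ± 0.20 (FDR 0.00232), and stood at 0.04 ± 0.20 at 6 h under 955 and 0.18 ± 0.20 under SNS-032, per the authors' deposited table. Its difference between 6 h and 1 h of 955 was 1.09 ± 0.20 (adjusted p = 3.58e-05 in the approximate contrast, by a t distribution with Benjamini-Hochberg adjustment). On the mitochondrial scale LSM11 was at -1.72 at 1 h and -2.03 at 6 h, so its return to the DMSO level was seen under the deposited scaling and not under the mitochondrial one.

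The subunits of the LSm rings on U6 and on decaying mRNA were mixed. LSM6 (11157), which sits in both the nuclear and the cytoplasmic ring, was at -1.26 ± 0.27 with 955 and -1.30 ± 0.27 under SNS-032, per the authors' deposited table. LSM1 (27257), which makes the ring of cytoplasmic mRNA decay, was at -1.32 ± 0.18 and -2.28 ± 0.18, and LSM8 (51691), its nuclear counterpart on U6, at -0.65 ± 0.19 and -1.02 ± 0.19 in the authors' deposited table. The last value of LSM8 was called and the one with 955 was under the fold bound. LSM4 (25804), also in both rings, was higher under SNS-032 at 1.08 ± 0.15 (-1.27 on the mitochondrial scale) and had 0.89 ± 0.15 (-1.18) with 955 in the authors' deposited table. LSM12 (124801) was at -1.07 ± 0.16 and -1.04 ± 0.16 in the authors' deposited table. LSMEM1 (286006), whose average level of 0.103 log2 CPM in the authors' deposited table was the lowest of the members, was called higher under SNS-032 at 2.20 ± 0.65, which became -0.15 on the mitochondrial scale.

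All 5 listed SF3 genes, whose products recognise the branch point within the U2 snRNP, were lower with 955, and 4 of 5 under SNS-032. SF3B4 (10262), an RNA-binding subunit of SF3B, fell furthest, to -2.79 ± 0.15 with 955 (FDR 8.86e-13) and -3.31 ± 0.15 under SNS-032 (7.91e-14), per the authors' deposited table. SF3A1 (10291) was at -1.84 ± 0.12 and -1.77 ± 0.12, and SF3B3 (23450), a scaffold of the complex, at -1.70 ± 0.15 and -1.58 ± 0.15 in the authors' deposited table. SF3B2 (10992) had -1.21 ± 0.20 and -1.16 ± 0.20 in the authors' deposited table. SF3A3 (10946) was at -1.23 ± 0.18 with 955 and, under the fold bound, -0.87 ± 0.17 under SNS-032, per the authors' deposited table. At 1 h the group lay between -0.03 and 0.13 in the authors' deposited table. In the approximate contrast of 955 at 6 h with 1 h all 5 were lower at 6 h, by differences from -2.76 (SF3B4) to -1.32 (SF3B2).

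The PRPF group held the deepest falls. BCAS2, a core subunit of the PRPF19 complex, was at -0.46 ± 0.20 at 1 h (FDR 0.287), -3.69 ± 0.22 at 6 h under 955 (6.2e-12) and -5.24 ± 0.25 under SNS-032 (1.19e-13), per the authors' deposited table. This left 7.75% and 2.65% of the DMSO level. PRPF4 (9128), a protein of the U4/U6 snRNP, was at -0.55 ± 0.31, -3.90 ± 0.35 and -4.15 ± 0.36 in the authors' deposited table, leaving 6.69% and 5.65%. Other subunits of the same assemblies had smaller values. PRPF19 (27339), the ubiquitin ligase that names the complex of BCAS2, was at -1.52 ± 0.13 and -1.72 ± 0.13 at 6 h in the authors' deposited table. PRPF31 (26121), also a U4/U6 protein, was at -1.02 ± 0.37 and -0.65 ± 0.37, and PRPF6 (24148), which bridges U4/U6 and U5, at -1.01 ± 0.16 and -0.69 ± 0.16 in the authors' deposited table, the values under SNS-032 not being called. PRPF38A (84950), needed for activation, was at -0.74 ± 0.15, under the bound, and -1.04 ± 0.15 in the authors' deposited table. Within this PRPF group, the members linked to the U1 snRNP (PRPF39 and PRPF40B) were higher. Each overlaps another protein-coding gene in RefSeq. PRPF39 (55015) had 1.04 ± 0.15 and 1.21 ± 0.15 in the authors' deposited table (-1.03 and -1.14 on the mitochondrial scale), and PRPF40B (25766) had 1.29 ± 0.29 and 1.15 ± 0.29 (-0.78 and -1.19).

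Of the 5 listed SR protein genes, 3 were lower and 1 higher with 955, and 4 lower and 1 higher under SNS-032. SRSF3 (6428), the smallest SR protein, was at -2.51 ± 0.39 with 955 (FDR 0.000914) and -2.74 ± 0.40 under SNS-032 (0.000541), per the authors' deposited table, with wide errors on 8.51 denominator degrees of freedom. SRSF1 (6426), the founding exonic-enhancer factor, was at -1.28 ± 0.12 and -1.57 ± 0.12, and SRSF7 (6432) at -1.13 ± 0.13 and -1.30 ± 0.13 in the authors' deposited table. SRSF4 (6429) was at -0.49 ± 0.13 with 955, under the bound, and, called, -1.01 ± 0.13 under SNS-032, per the authors' deposited table. SRSF11 (9295) was the exception at 1.11 ± 0.11 (FDR 2.4e-08) and 1.21 ± 0.11 (5.46e-09) in the authors' deposited table, and at -0.96 and -1.13 on the mitochondrial scale. The fold changes of SRSF11 therefore lay more than 2 log2 units above those of SRSF1 and SRSF7, a gap that the scaling cannot change.

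The listed hnRNP genes all had negative values at 6 h. Of these, 5 of 6 were called lower for 955 and 6 of 6 under SNS-032, per the authors' deposited table. HNRNPF (3185), which binds G-rich tracts near splice sites, was at -2.81 ± 0.14 with 955 (FDR 3.25e-13) and -2.98 ± 0.14 under SNS-032 (1.05e-13), values of the authors' deposited table. HNRNPAB (3182) was at -1.78 ± 0.44 and -1.97 ± 0.45, and HNRNPA0 (10949), whose gene has no intron, at -1.43 ± 0.13 and -1.95 ± 0.14 in the authors' deposited table. HNRNPM (4670) and HNRNPU (3192), abundant nuclear RNA-binding proteins, stood in the authors' deposited table at -1.18 ± 0.23 and -1.10 ± 0.11 with 955 and at -1.11 ± 0.22 and -1.23 ± 0.11 under SNS-032. HNRNPA1L2 (144983) was at -0.69 ± 0.18, under the bound, and -1.14 ± 0.19 in the authors' deposited table. It is a near-identical copy of HNRNPA1, which is not analysed here, so its reads may be shared with that gene.

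Of the 19 listed RBM-named genes, 11 (57.9%) were lower and 5 (26.3%) higher with 955, near the 50.1% and 35.2% of all listed genes. Under SNS-032, 13 (68.4%) were lower and 5 (26.3%) higher, beside 52.5% and 37.8% of all listed genes. The paralogues RBM15 and RBM15B, which both recruit the RNA adenosine methylation complex, moved in opposite directions. RBM15B (29890) was at -0.92 ± 0.13 at 1 h (FDR 0.000131), -2.43 ± 0.14 at 6 h under 955 (3.15e-12) and -2.66 ± 0.14 under SNS-032 (6.04e-13), per the authors' deposited table. RBM15 (64783) was at 0.45 ± 0.14 at 1 h (FDR 0.0685), 1.61 ± 0.14 at 6 h under 955 (2.16e-09) and 1.75 ± 0.14 under SNS-032 (4.58e-10), per the authors' deposited table, and at -0.22, -0.47 and -0.59 on the mitochondrial scale. RBM15 thus ended at 3.04 times DMSO with 955, and RBM15B at 18.6% of it. RBM15B overlaps DCAF1 in RefSeq, and whether the counts used strand is not given in the sources used here.

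Among the RBM genes that fell far were RBM42 (79171), at -2.70 ± 0.14 with 955 and -2.76 ± 0.14 under SNS-032, and RBM7 (10179), a cofactor of the nuclear exosome, at -2.31 ± 0.70 and -3.03 ± 0.73 in the authors' deposited table. RBM23 (55147) was at -2.59 ± 0.16 and -2.19 ± 0.16, and RBM8A (9939), a core subunit of the exon junction complex, at -1.99 ± 0.14 and -1.98 ± 0.14 in the authors' deposited table. RBM22 (55696), which contacts the catalytic centre of the spliceosome, was at -1.35 ± 0.30 and -1.28 ± 0.29 in the authors' deposited table. Of the genes that were higher, RBM33 (155435) had a small error, at 0.53 ± 0.11 at 1 h (FDR 0.00542), 2.07 ± 0.12 at 6 h under 955 (2.19e-12) and 2.09 ± 0.12 under SNS-032 (1.36e-12), per the authors' deposited table. On the mitochondrial scale RBM33 was at -0.14, 0.00 and -0.25, so with 955 at 6 h it stood at the median of the mitochondrial mRNAs. RBM44 (375316) had the largest value, 3.56 ± 0.68 and 3.65 ± 0.68 in the authors' deposited table (1.49 and 1.30 on the mitochondrial scale), and its average level was 0.105 log2 CPM. RBMS2 (5939) was at 1.11 ± 0.18 and 1.20 ± 0.18 (-0.96 and -1.15), and RBM6 (10180) was called with SNS-032 alone at 1.03 ± 0.20 (-1.32), beside 0.66 ± 0.20 (-1.41) for 955 in the authors' deposited table. RBM11 (54033), at an average level of 1.27, was called with 955 alone at 1.15 ± 0.39 (-0.92), with 0.57 ± 0.40 (-1.78) under SNS-032, per the authors' deposited table.

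Most of the members' difference from DMSO appeared between 1 h and 6 h of 955, a timing that the listing fixed in part. At 1 h, 48 of 55 members lay within 0.5 of the DMSO value, 27 were negative and 28 positive, and 3 had an FDR under 0.05 (LSM11, RBM15B and RBM33) in the authors' deposited table, where 16.6% of all listed genes did. Of the 36 members lower at 6 h, 32 had a 1 h value above -0.5. The same counts within or above 0.5 were not made over all listed genes. At 1 h the quartiles were -0.49 and 0.28 over all listed genes and -0.22 and 0.17 over the members. Values near 0 at 1 h were thus common among all listed genes too. In the approximate contrast of 955 at 6 h with 1 h, 37 members were called, 31 lower and 6 higher at 6 h, against 35.6% and 27% of all listed genes (62.6% in either direction). By adjusted p alone 51 members passed, beside 84.7% of all listed genes. With the bound of 1 and the mitochondrial scale, 42 were lower and 0 higher, with no share over all listed genes computed on that scale. The largest differences were those of PRPF4 (-3.36 ± 0.33, adjusted p = 1.77e-06), BCAS2 (-3.23 ± 0.21, 7e-12) and RBM42 (-2.83 ± 0.13, 5.45e-14), followed by SF3B4 and HNRNPF (-2.56 ± 0.13, 2.37e-13). In the other direction the differences were RBM44 at 2.59 ± 0.68, RBM33 at 1.54 ± 0.12, RBM11 at 1.22 ± 0.39, SNRPD2 at 1.16 ± 0.15 and RBM15 at 1.16 ± 0.14, beside LSM11, and none of these 6 was called on the mitochondrial scale. There RBM44 was at 1.19 and RBM33 at 0.15, while RBM11 (-0.17), SNRPD2 (-0.24), RBM15 (-0.24) and LSM11 (-0.31) turned negative. The control for both times was collected at 6 h, so the 1 h values cannot be told apart from time in culture.

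**Figure D2:**
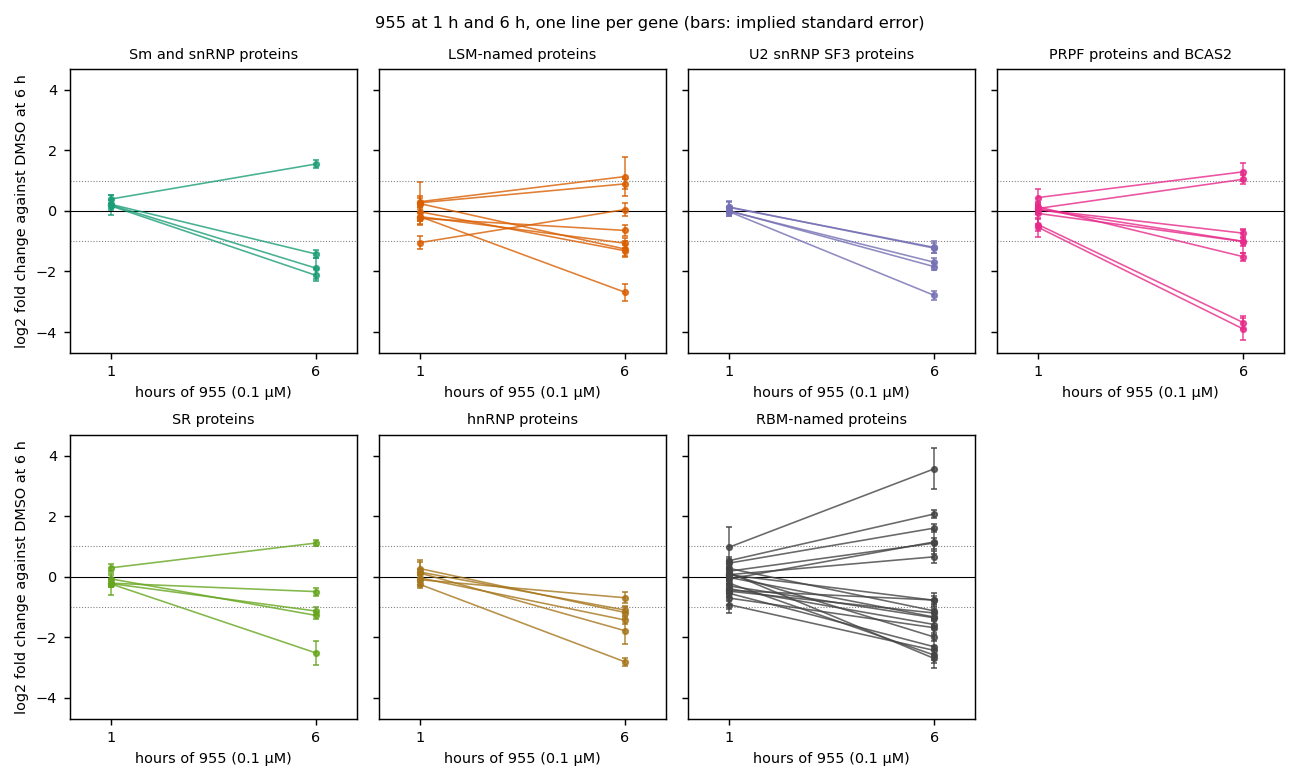
Log2 fold change against the 6 h DMSO group after 1 h and 6 h of 955, with 1 line per gene, 1 panel per role group and bars for the implied standard error; dotted lines mark 1 and -1. The lines start near 0 and spread by 6 h, the 5 SF3 genes only downwards, and LSM11 alone starts below -1 and returns to 0.04; on the mitochondrial scale every 6 h value would lie 2.07 lower and every 1 h value 0.67 lower.

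The compounds were given at doses that differ by a factor of 10, and for 47 of the 55 members their values at 6 h differed by less than 0.5. The quartiles of the difference were -0.09 and 0.27 over the members, beside -0.20 and 0.25 over all listed genes. In the approximate contrast, 1 of 55 members was called: BCAS2, higher with 955. Of all listed genes, 0.851% were called higher and 1.11% in either direction. BCAS2 joined the members by name and not by a family prefix, in a choice made with earlier results of these data known. By adjusted p alone 4 members passed, beside 2.73% of all listed genes. BCAS2 was 1.55 ± 0.24 higher with 955 at 0.1 µM than under SNS-032 at 1 µM (95% interval 1.06 to 2.04, adjusted p = 0.000675), that is, it fell less. LSM1 differed by 0.96 ± 0.18 (0.59 to 1.33, adjusted p = 0.00517), SRSF4 by 0.52 ± 0.13 (0.0325) and HNRNPA0 by 0.52 ± 0.14 (0.0382), all 3 towards a smaller fall with 955 and all under the bound of 1. When the error was taken as if each comparison had its own control, the adjusted p of BCAS2 was 0.0735, that of LSM1 0.256, that of SRSF4 0.513 and that of HNRNPA0 0.552. Adjusted over 28395 tests, the number the deposited FDR corresponds to, the values were 0.00333, 0.0255, 0.160 and 0.188. SF3B4 had a difference of 0.52 ± 0.15 with an adjusted p of 0.0675. The median difference over the members was 0.06.

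For 45 of the 55 members the unadjusted 95% interval of the difference included 0, and for 45 it lay wholly within 1 of 0. For 19 members it lay within 0.5 of 0. Where the interval was wide, as for RBM7 (-0.91 to 2.35), LSMEM1 (-2.39 to 0.26) and SRSF3 (-0.68 to 1.12), it included differences of more than 1 in size. RBM33 differed by -0.02 ± 0.12 (-0.26 to 0.22) and SNRPD2 by -0.05 ± 0.15 (-0.36 to 0.25). In 13 members a call was made with 1 compound and not with the other, 9 of them under SNS-032 and 4 with 955. The same count over all listed genes was not made. Of these 13 members only SRSF4 had an adjusted p under 0.05 for the difference itself, which it lost in both of those alternatives.

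**Figure D3:**
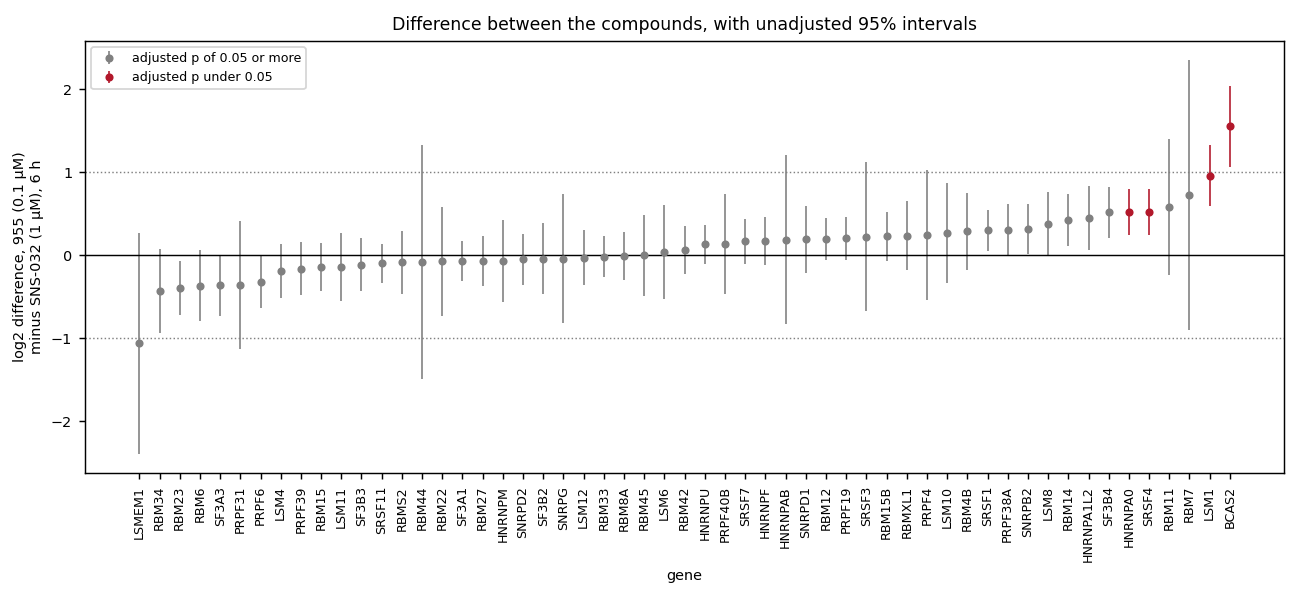
Log2 difference between 955 (0.1 µM) and SNS-032 (1 µM) at 6 h for each member, in ascending order, with unadjusted 95% intervals; dotted lines mark 1 and -1, and red marks an adjusted p under 0.05 in the approximate contrast. The red points are HNRNPA0, SRSF4, LSM1 and BCAS2, all above 0, and only that of BCAS2 has an interval wholly above 1.

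The members that were higher had a longer median span than those that were lower. The median span in RefSeq was 15.9 kb for the 36 members lower with 955 and 32.2 kb for the 9 higher, while among other listed protein-coding genes it was 22.2 kb and 26.6 kb. Across the 55 members Spearman's rho between span and log2 fold change was 0.315 with 955 at 6 h, 0.409 under SNS-032 and 0.125 at 1 h. Across 5202 other listed nuclear protein-coding genes it was 0.113, 0.160 and 0.055. These are descriptions over genes that share the same libraries, and the order of genes within a comparison does not depend on the scaling. RBM33 (137 kb) and RBM6 (137 kb) are the longest members, SNRPD2 (4.86 kb) and RBM15 (7.30 kb) are short genes with high values, and LSM10 and SF3B4, both near 4.5 kb, were among the lowest. For exon number, the median was 7.5 for members lower with 955 and 14 for those higher, beside 7 and 11 in the other listed genes, with a rho across the members of 0.093 for 955 and 0.231 for SNS-032, lower than the 0.287 and 0.351 across 5024 other listed genes. The 3 members with 1 exon in GENCODE (HNRNPA0, HNRNPA1L2 and RBM15B) were all lower under SNS-032, as were 112 of 128 other listed single-exon genes. With 955, 2 of the 3 and 95 of the 128 were lower at 6 h, and 0 of the 3 and 48 of the 128 at 1 h.

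**Figure D4:**
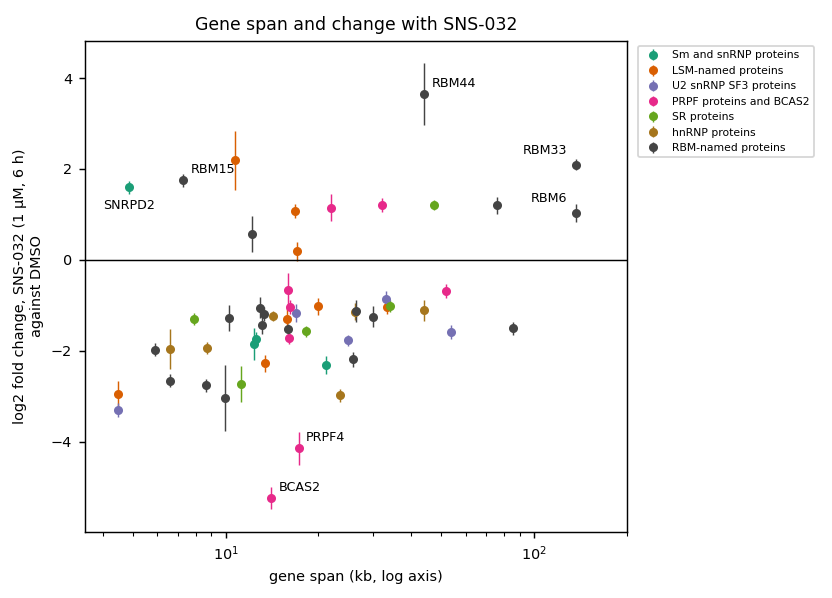
Gene span in RefSeq (kb, log axis) against the log2 fold change under SNS-032 at 6 h for the 55 members, coloured by role group, with bars for the implied standard error. Values above 0 lie at both ends of the span axis, from SNRPD2 and RBM15 on the left to RBM33 and RBM6 on the right, and on the mitochondrial scale every point but RBM44 would lie below 0.

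Of a list of 112 other splicing genes, 43 were listed, and of these 35 were lower and 6 higher with 955 and 34 lower and 6 higher under SNS-032, per the authors' deposited table. The lower share was 81.4% and 79.1%, where all listed genes had 50.1% and 52.5%, and all listed genes had 35.2% and 37.8% higher. The medians of the 43 were -1.80 and -1.87, beside -1.03 and -1.07 over all listed genes in the authors' deposited table. The lowest with 955 were DDX20, a helicase of the SMN complex that loads the Sm ring, at -4.28 ± 0.33 (-5.31 ± 0.36 under SNS-032), GPKOW at -3.55 ± 0.35 (-3.13 ± 0.34) and GEMIN6, another SMN-complex subunit, at -3.15 ± 0.48 (-2.94 ± 0.48) in the authors' deposited table. The highest were SUGP2 at 1.54 ± 0.12 (1.60 ± 0.13), PTBP2 at 1.51 ± 0.14 (1.69 ± 0.14) and RBFOX2 at 1.32 ± 0.27 (1.32 ± 0.27) in the authors' deposited table. On the mitochondrial scale these 3 were below 0 with each compound. At 1 h, 3 of the 43 (6.98%) were lower in the authors' deposited table, a share near the 7.71% of all listed genes: DDX20 at -1.78 ± 0.29, GEMIN7 at -1.04 ± 0.30, and GEMIN4 just past the bound. Their fellow SMN-complex genes GEMIN2 (-0.32), GEMIN5 (-0.47) and GEMIN6 (-0.95) were not called at 1 h in the authors' deposited table.

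RefSeq places 21 of the 55 members over another gene, 14 of them over a protein-coding one, and the members include near-identical copies (HNRNPA1L2, RBMXL1 and RBM4B) whose reads can be shared with HNRNPA1, RBMX and RBM4. RBM7, SRSF3 and HNRNPAB had fewer than 10 denominator degrees of freedom, against a median of 23.3 over the members. LSMEM1, RBM44 and RBM11 had average levels under 2 log2 CPM in the authors' deposited table. The median average level was 6.15 over the members and 4.15 over all listed genes.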

How the data were processed

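RNA was extracted with a column kit from 12 samples of MOLT4 cells and sequenced from mRNA libraries, per the labels' protocols. The submitters' processing notes name DESeq2 and hg38 with no role. The table's columns (an F statistic and an average log2 CPM) are not those DESeq2 usually writes, so which tool made the authors' values is not known here. The aligner, counter, annotation, strand and filters are not given in the sources used here. The deposited table holds the authors' own comparisons: log2 fold changes and an average log2 CPM, an F statistic (a score of the authors), and the authors' p-values and FDR. The log base was read from the values: the smallest of the genes' largest absolute fold changes was 1.001. The depth per sample is unknown, so no interval that needs it is given. The deposited FDR corresponds to 28395 tests (81.1% of 3083 values of tests times p over FDR were whole within 0.01).

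Gene IDs were matched to RefSeq (GRCh38.p14; 5727 of 5759), which gave names, types, spans and promoters. Exon numbers came from the longest basic transcript in GENCODE release 29. Denominator degrees of freedom were solved from each F and p. The approximate contrast of 2 treated groups took the difference of their log2 fold changes, the root mean square of their implied standard errors and a t distribution, with Benjamini-Hochberg adjustment over the listed genes (Python 3.11.15, scipy 1.17.1). It was tested on simulated data for 955 against SNS-032 (5759 genes, 200 changed). It found 90.5% of the changed genes with 3.2% false calls, and a direct contrast found 89.0% with 1.7%. The simulation planted only differences past the bound of 1. Its depth was assumed, and its dispersion and degrees of freedom were the same for every gene. These rates need not hold for smaller differences or for members with few degrees of freedom. The design had foreseen a count model if values per sample were present. The planned protein comparison was not made.

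Members and lists were chosen with earlier results of these data known. Named genes are, per role group, the lowest and highest at 6 h, the highest average level per kilobase, members called at 1 h or in an approximate contrast (at most 5 each way), members against their group, BCAS2, and 3 each way of the other splicing genes. Remaining members were named for their family or role, after their values were seen. One further set of cell type markers is not reported here.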

Additional observations from a re-analysis of the deposited data

Results flagged for a closer look

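BCAS2 differed between the compounds at 6 h, by 1.55 log2 units (955 minus SNS-032), in the approximate contrast of the treated groups. It fell with each compound, and the doses differed. BCAS2 was added to the members by name.

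LSM11 differed between the times of 955, with a value 1.09 log2 units higher at 6 h than at 1 h in the same kind of contrast. It was lower than DMSO at 1 h and at the DMSO level at 6 h under the deposited scaling. On the mitochondrial scale the difference was -0.31.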

How the results depend on the processing

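No paired analysis was possible because the analysed table holds comparisons and no values per sample, and for the same reason no replicate could be left out. With the size bound raised to 1.5 on the log2 scale, the members called numbered 23 for 955 at 6 h (45 before), 28 for SNS-032 (50) and 0 for 955 at 1 h (1). Without a bound on size, 3 were called at 1 h and 4 in the contrast of the compounds. Treating the control as unshared left 0 called in that contrast, and mitochondrial scaling gave 2 there and 8 at 1 h, all 8 lower. No share over all listed genes is given at the bound of 1.5, with an unshared control or on the mitochondrial scale. Those counts therefore do not show how the members stand beside all listed genes. An FDR under 0.01, a filter on the average level, the larger standard error and adjustment over 28395 tests left each count within 1.5 times its value, as did mitochondrial scaling for the other comparisons.

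Mitochondrial scaling turned the sign of 21 called values of named members: with 955 at 6 h RBM15 (-0.47), SNRPD2 (-0.53), PRPF40B (-0.78), RBM11 (-0.92), RBMS2 (-0.96), SRSF11 (-0.96) and PRPF39 (-1.03), and with SNS-032 LSMEM1 (-0.15), RBM33 (-0.25), RBM15 (-0.59), SNRPD2 (-0.75), SRSF11 (-1.13), PRPF39 (-1.14), RBMS2 (-1.15), PRPF40B (-1.19), LSM4 (-1.27) and RBM6 (-1.32), and in the contrast of 6 h with 1 h RBM11 (-0.17), SNRPD2 (-0.24), RBM15 (-0.24) and LSM11 (-0.31). This follows from lowering every value. Without the RBM-named members the median of the members was -1.22 with 955 at 6 h, -1.26 with SNS-032 and 0.02 at 1 h.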
